A study of Homo sapiens with 4 samples.

Results

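The genes described here encode receptor subunits and ligands of the cytokine systems built around the common gamma chain and interleukin-13, 10 genes chosen by name from 19775 measured genes. The receptor genes were IL2RA, IL2RB, IL2RG, IL4R, IL7R, IL15RA, IL21R and IL13RA1, and the ligand genes were IL21 and IL13. All 10 were measured, by 17 of the 54675 probe sets. The cells were KM-H2, an established cell line from Hodgkin lymphoma, in 2 groups of 2 Affymetrix arrays each. The knockdown group carried small interfering RNA against PTPN1, a phosphatase that removes phosphate from tyrosines of JAK kinases and STAT proteins, and the other group, called control below, carried a non-silencing agent. No other allele, agent, dose or time is stated in the labels. Arrays within a group are technical replicates by the series' own design text, and every SD, SE and p-value below measures the spread between arrays and not between cultures, and a single line stands for the disease. Fewer cells with a transcript and less transcript per cell cannot be told apart in such bulk RNA.

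The common gamma chain, encoded by IL2RG, is a signalling subunit shared by the receptors for interleukins 2, 4, 7, 9, 15 and 21. It pairs with a chain that gives each receptor its ligand: IL4R for interleukin-4, IL7R for interleukin-7 and IL21R for interleukin-21, while IL2RB serves both interleukin-2 and interleukin-15, joined by IL2RA or IL15RA as high-affinity chains. IL4R can instead pair with IL13RA1, which makes a receptor for interleukin-13 that does without the gamma chain. These receptors signal through JAK kinases and STAT proteins. Hodgkin Reed-Sternberg cells are known for interleukin-13 and interleukin-21 that act back on the cells that make them.

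PTPN1 was lower in both knockdown arrays. Its brightest probe set read 8.16 and 8.40 in control arrays 1 and 2, against 7.00 and 7.36 with knockdown, all on the log2 scale, which left 46.8% of the signal. The groups did not overlap, and the limma adjusted p over all genes was 0.769. Array medians lay between 5.10 and 5.12. Same-numbered arrays were alike in beta-actin signal toward the 3' end minus that toward the 5' end. This measure, which depends on RNA quality and on amplification, was 1.31 and 1.33 for number 1 and 0.972 and 0.969 for number 2.

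Upstream sequence is shown for IL21 and IL2RA, the members with the widest differences between arrays, and for IL15RA, the only member whose promoter window held a STAT motif. The sequences are the 250 bases before a RefSeq transcription start in build GRCh38.p14, 5′ to 3′ on the gene's own strand, which is the minus strand for these genes. The windows are chr4:122621067-122621316 for IL21, chr10:6062368-6062617 for IL2RA and chr10:5978047-5978296 for IL15RA, the last from 1 of its 4 annotated starts. Capitals mark the match to the STAT motif TTCNNNGAA.
IL21: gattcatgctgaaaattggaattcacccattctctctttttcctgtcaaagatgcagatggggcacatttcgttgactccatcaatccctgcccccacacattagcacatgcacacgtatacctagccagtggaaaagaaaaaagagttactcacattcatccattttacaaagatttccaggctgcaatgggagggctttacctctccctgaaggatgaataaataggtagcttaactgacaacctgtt
IL2RA: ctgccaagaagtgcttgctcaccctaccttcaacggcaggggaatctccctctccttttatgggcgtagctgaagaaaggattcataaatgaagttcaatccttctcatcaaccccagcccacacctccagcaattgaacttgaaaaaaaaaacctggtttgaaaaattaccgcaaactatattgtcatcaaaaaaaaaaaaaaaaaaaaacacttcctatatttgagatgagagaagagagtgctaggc
IL15RA: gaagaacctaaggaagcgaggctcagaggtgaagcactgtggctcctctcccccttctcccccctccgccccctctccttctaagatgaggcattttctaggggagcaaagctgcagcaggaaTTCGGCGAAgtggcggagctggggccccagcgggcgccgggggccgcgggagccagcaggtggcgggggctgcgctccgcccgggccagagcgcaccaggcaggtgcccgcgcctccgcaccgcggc
RefSeq windows of 300 bases, from 250 before a start to 50 after it, were found for 9 members, in 13 windows, and not for IL2RB. On both strands TTCNNNGAA was in 1 of these 13 windows and in 7.66% of all 35116 windows. The longer form bound by STAT6, TTC and GAA with any 4 bases between, was in 0 of 13 and in 6.44% of all. For NF-kB only 1 strict form was searched, GGG and TTTCC with any 2 bases between. It was in 1 of 13 and in 1.91% of all. The match was on the minus strand of the IL4R window, as GGAAAGCCCC from position -50 to -41 relative to the start. The IL21 and IL2RA windows held none of these 3 letter patterns. Looser forms were not searched, so the absence of a pattern does not show that a window lacks sites for the factor. Their GC content was 43.7% and 41.7%, against a median of 58.7% over all windows.

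KM-H2 gave signal above a background limit for 6 of the 10 genes, all of them receptor chains: IL2RB, IL2RG, IL4R, IL15RA, IL21R and IL13RA1. IL2RA, IL7R, IL21 and IL13 did not stand out from background in the non-silencing arrays. The limit was the 95th percentile, on each array, of 57 probe sets for 41 genes restricted to other tissues such as liver, muscle and retina. It lay at 5.65 and 5.64 in the non-silencing arrays and at 5.62 and 5.44 in the knockdown arrays. In both non-silencing arrays 11 of the 17 member probe sets exceeded it, against 38.8% of all probe sets on the array, and every probe set of those 6 genes did. By brightest probe set 53.4% of all genes passed. The limit leaves some overlap: the highest of the 57 probe sets read 6.83 in non-silencing array 2, above IL2RG there at 6.79. A probe set's signal also depends on how well its probes bind, so these values place each probe set against background and do not order the genes by transcript amount.

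**Figure D1:**
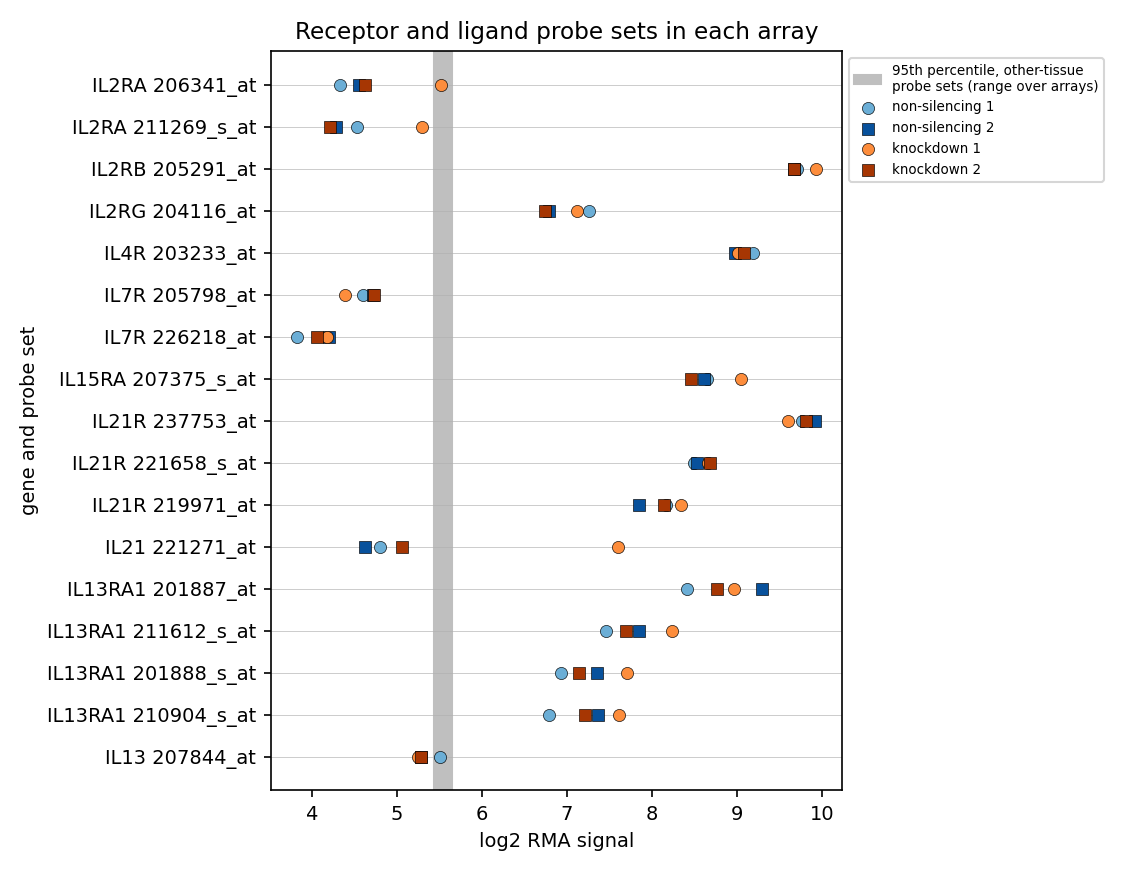
Log2 RMA signal (x axis) of the 17 probe sets of the 10 genes (y axis) in each of the 4 arrays, with circles for number 1, squares for number 2, blue for non-silencing and orange or brown for knockdown. The grey band spans the 95th percentiles of other-tissue probe sets, 5.44 to 5.65, and the IL21 probe set passed it in knockdown array 1 alone, at 7.61.

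IL2RG, the common chain, was above the background limit in all arrays, with its values ordered by array number and not by group. Its single probe set (204116_at) read 7.26 and 6.79 in control arrays 1 and 2, against 7.12 and 6.74 with knockdown. Both arrays numbered 1 were above both arrays numbered 2, and the groups overlapped. Knockdown minus non-silencing was -0.10 (SE 0.22, 95% interval -0.67 to 0.48), with -0.14 for arrays 1 and -0.05 for arrays 2. Number 2 minus number 1, in a fit with terms for group and number, was -0.42 (limma adjusted p = 0.0579). In that fit 9.85% of all genes passed for the array number.

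IL2RB, the signalling chain of the interleukin-2 and interleukin-15 receptors, was among the bright members. Its probe set (205291_at) read 9.71 and 9.68 in the control arrays, against 9.93 and 9.68 with knockdown, which placed it above 92.3% to 93.6% of all probe sets of an array. The knockdown arrays differed from each other by more than knockdown array 2 did from either control. The difference was 0.12 (SE 0.15, 95% interval -0.26 to 0.49), and -0.0117 without knockdown array 1. IL15RA, the chain that binds interleukin-15 with high affinity, was also highest in knockdown array 1. Its probe set (207375_s_at) read 8.65 and 8.62 in the control arrays, against 9.04 and 8.46 with knockdown, so that the knockdown arrays lay on either side of the controls. The difference was 0.12 (SE 0.22), with 0.40 and -0.16 within the array numbers and -0.169 without knockdown array 1.

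IL2RA, the alpha chain of the interleukin-2 receptor that is also known as the activation marker CD25, read low in 3 arrays and higher in knockdown array 1. Probe set 206341_at read 4.33 and 4.56 in the control arrays, against 5.52 and 4.63 with knockdown. Probe set 211269_s_at read 4.54 and 4.28 against 5.30 and 4.22. Both had their highest value in knockdown array 1, and neither passed the background limit in any array. For the first the difference for the arrays numbered 1 was 1.19 and for those numbered 2 it was 0.07. For the second these were 0.77 and -0.06, and no fold is drawn from values at background. The gene's difference, taken from the brighter probe set, was 0.63 (SE 0.31, limma adjusted p = 1), and it was 0.187 without knockdown array 1, 1.08 without knockdown array 2 and 0.492 with the mean of both probe sets.

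IL4R, the chain shared by the receptors for interleukin-4 and interleukin-13, was bright and nearly level. Its probe set (203233_at) read 9.19 and 8.98 in the control arrays, against 9.02 and 9.09 with knockdown. Both knockdown values lay between the controls. The difference was -0.03 (SE 0.14), with a 95% interval from -0.39 to 0.33, and it was 0.0799 without non-silencing array 1 and 0.0055 without knockdown array 1.

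IL13RA1, the partner of IL4R in the interleukin-13 receptor, had opposite signs in the array numbers, in all 4 of its probe sets. Probe set 201887_at read 8.42 and 9.29 in the control arrays, against 8.96 and 8.77 with knockdown. Probe set 211612_s_at read 7.46 and 7.85 against 8.24 and 7.69. In each of the 4 probe sets non-silencing array 1 was the lowest of the 4 arrays, and in 3 of them knockdown array 1 was the highest. The differences ran from 0.55 to 0.82 for the arrays numbered 1 and for number 2 from -0.52 to -0.16. Such a change from higher to lower was found in 22.9% of all probe sets. The probe sets share a transcript and are not independent. The gene's difference was 0.01 (SE 0.31) by its brightest probe set and 0.234 by the mean of all 4, and it was -0.425 without non-silencing array 1 and 0.453 without non-silencing array 2.

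IL13, the ligand, stayed at background in all arrays. Its probe set (207844_at) read 5.51 and 5.29 in the control arrays, against 5.25 and 5.28 with knockdown. Both knockdown arrays lay below both controls, by as little as 0.0035 between the arrays numbered 2. The difference was -0.13 (SE 0.14). IL7R, the interleukin-7 receptor chain, was also at background. Its probe sets read from 4.40 to 4.73 (205798_at) and from 3.83 to 4.20 (226218_at), and their differences had opposite signs, at -0.10 (SE 0.16) and 0.11 (SE 0.17). By the brighter of these probe sets the gene's difference was 0.0695 without knockdown array 1.

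IL21R, the interleukin-21 receptor chain, was bright by 3 probe sets that did not move alike. Probe set 237753_at read 9.77 and 9.92 in the control arrays, against 9.61 and 9.82 with knockdown. Probe set 221658_s_at read 8.50 and 8.53 against 8.67 and 8.68, and probe set 219971_at read 8.17 and 7.86 against 8.34 and 8.14. The brightest was lower in knockdown within both array numbers, by -0.16 and -0.10, and the others were higher within both, by 0.17 and 0.15 and by 0.17 and 0.29. The groups were apart for 221658_s_at alone, at a difference of 0.16 (SE 0.12). The platform's annotation ties the brightest one to an expressed sequence tag and the others to mRNA sequences, and whether it reports the coding transcript was not tested. The gene's difference was -0.13 (SE 0.15) by its brightest probe set and 0.158 by the median of the 3. The direction for IL21R depends on the probe set.

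IL21, which encodes interleukin-21, a cytokine of T cells that is also made by Hodgkin cells, had the largest measured difference of the 10 genes, nearly all of it in 1 array. Its only probe set (221271_at) read 4.80 and 4.63 in non-silencing arrays 1 and 2, 7.61 in knockdown array 1 and 5.06 in knockdown array 2. Knockdown array 1 stood well above the background limit, while the other knockdown array lay above both controls and below that limit. Array 1 against array 1 the measured difference was 2.81, and array 2 against array 2 it was 0.43. The control arrays and knockdown array 2 were not above background, so these sizes are uncertain: set against the limit of 5.65 in control array 1, knockdown array 1 was at least 3.90-fold higher. The mean difference was 1.62 (SE 0.81, 95% interval -0.46 to 3.70), and its limma adjusted p was 1. Without knockdown array 1 the difference was 0.347, and without knockdown array 2 it was 2.89. The interleukin-21 receptor chain did not share this pattern, since its 3 probe sets differed by -0.16 to 0.17 between the arrays numbered 1.

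With each gene taken by its brightest probe set, IL21 had the widest gap of all genes between knockdown array 1 and the next array. It exceeded the next value by 2.54, ahead of NAPSB (2.43), IL6 (2.15), MYOF (2.05) and TPRG1 (1.95), genes singled out after their values were seen. From the background limit of the other arrays, in place of its own values there, IL21 stood 1.96 higher. Over all probe sets 1 had a wider gap than IL21, a dimmer probe set of the feedback inhibitor gene SOCS3 (3.04). Gaps of at least 1 were found for 14 genes in knockdown array 1, 29 in knockdown array 2, 18 in non-silencing array 2 and 4 in non-silencing array 1. The widest gaps of the other arrays were 3.26 for COL14A1 in knockdown array 2, 2.57 for JCHAIN in non-silencing array 1 and 2.07 for CYP4Z1 in non-silencing array 2. A gene far above the rest in a single array was thus found in each of the 4 arrays. The gap was 0.40 for IL15RA and 0.89 for IL2RA, the latter between values that were all below the background limit.

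**Figure D2:**
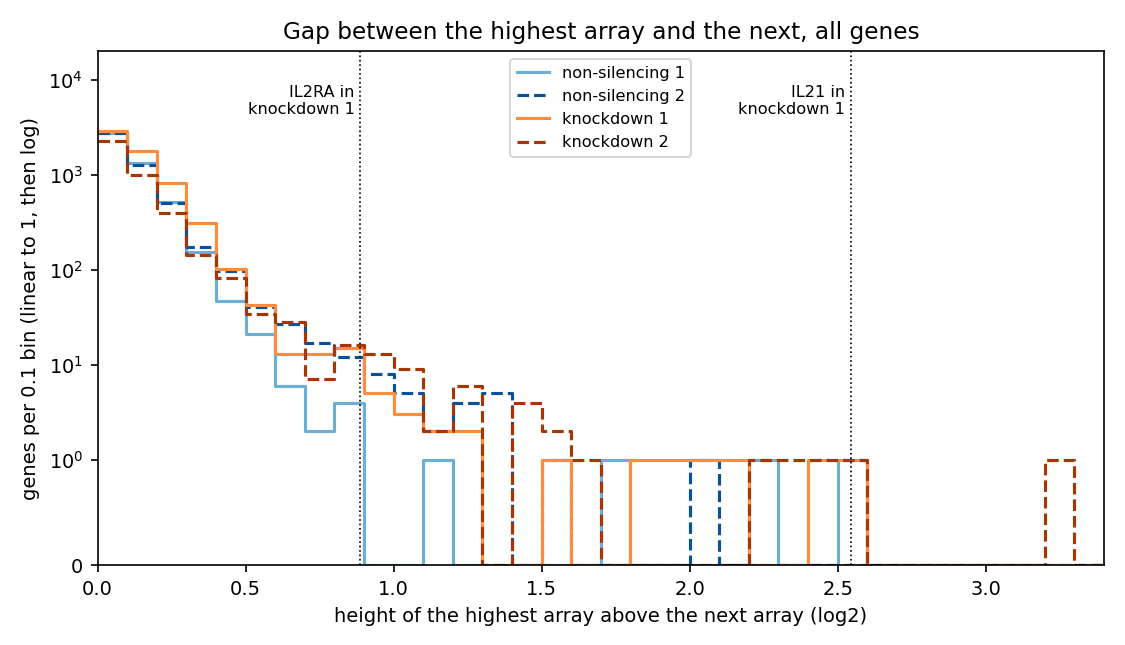
Number of genes (y axis, linear to 1 and logarithmic above) by the gap in log2 signal between a gene's highest array and the next (x axis, bins of 0.1), with 1 line for each array that was highest. Dotted lines mark IL2RA at 0.89 and IL21 at 2.54, both highest in knockdown array 1.

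The genes whose array values ran closest to IL21 were IL6, TPRG1, NAPSB, MYOF and CFB, by the root mean square difference of log2 values centred on each gene's mean over the 4 arrays. That distance was 0.206 for IL6, an inflammatory cytokine, and from 0.31 to 0.50 for the others, among them the complement factor gene CFB. IL6 read 6.65 and 6.71 in the control arrays, against 9.11 and 6.97 with knockdown. Like IL21, these genes were highest in knockdown array 1. Closest to IL2RA were HMOX1, which encodes heme oxygenase, RGS1, a regulator of G protein signalling, the interferon pathway gene IRF9, SERPINA2 and the early-response gene IER3, at distances of 0.061 to 0.11. HMOX1 read 7.07 and 7.39 against 8.30 and 7.53. With 4 arrays, many genes can lie near a pattern that turns on 1 of them, so the ranking is a description.

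**Figure D3:**
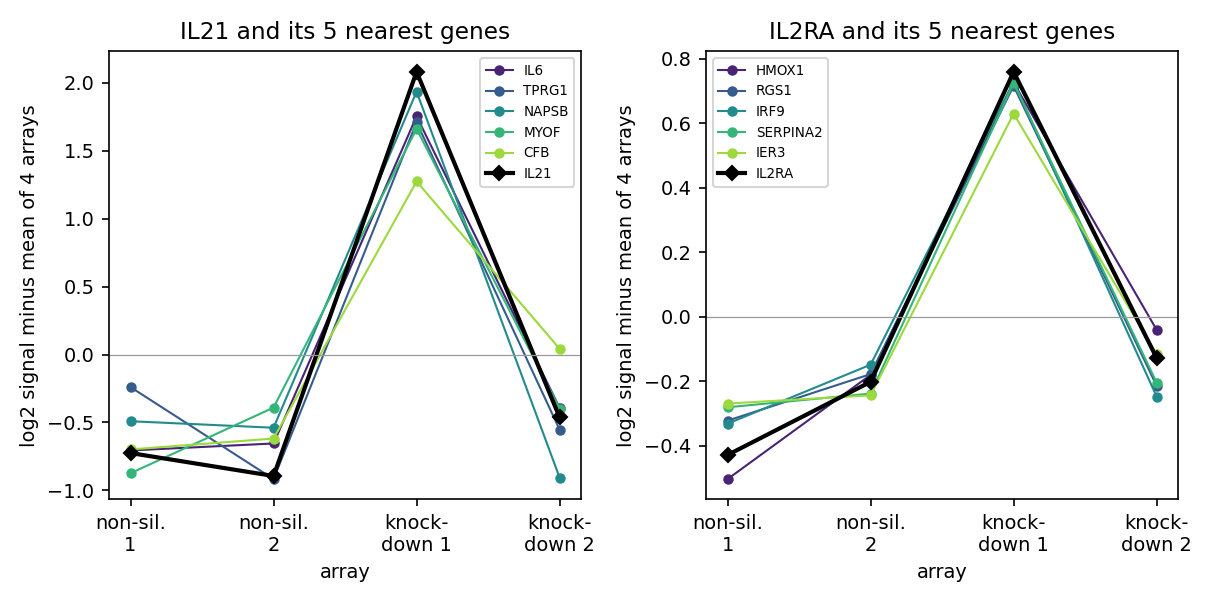
Log2 signal minus the gene's mean over the 4 arrays (y axis) for IL21 (left) and IL2RA (right) in black and the 5 genes closest to each in colour, by array (x axis). All lines peak in knockdown array 1, where IL6 stood 2.15 above its next array and HMOX1 0.77.

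In limma, in the fit without a term for the array number, none of the 10 genes passed at an adjusted p of 0.05 over all genes, nor did any other gene (0 of 19775, or 0%). Before adjustment 509 genes (2.57%) had a p under 0.05, and 0 of the 10 did. An exact permutation of 2 against 2 arrays cannot give a p below 0.333. With an intensity trend in the variance model 1 gene passed over all genes, and with an unmoderated linear model 0 did. A term for the array number raised the counts, as given below with the dependence on processing, and no member passed there. The lack of calls does not show that the 10 genes were unchanged: intervals of the differences reached from -0.46 to 3.70 for IL21 and from -0.39 to 0.33 for IL4R.

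Knockdown and non-silencing arrays were apart for 3 of the 10 genes, IL21 and IL2RA with knockdown higher and IL13 with it lower. Over all genes 27.4% were apart, 12.4% with knockdown higher and 15% with it lower, so the members' share was near the background. Of the 10 genes 5 lay above 0 and 5 below, and the median difference was -0.0080, against -0.0066 over all genes. With the mean of all probe sets of a gene 7 lay above 0 and 3 below, with a median of 0.10, and with the median of probe sets the counts were equal to these and the median was 0.119. Over the 17 probe sets the median difference was 0.36 for the arrays numbered 1 and -0.05 for number 2, compared with 0.0030 and -0.0064 over all probe sets. Probe sets of a gene share its transcript, and 4 of the 17 belong to IL13RA1. Of the 17 probe sets 3 were apart with knockdown higher and 1 with it lower, against 28.7% of all probe sets in either direction. Knockdown array 1 was the highest array for 9 of the 17 probe sets, where the share over all probe sets was 29.9%, and for 4 of the 10 genes, where it was 30.5%.

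**Figure D4:**
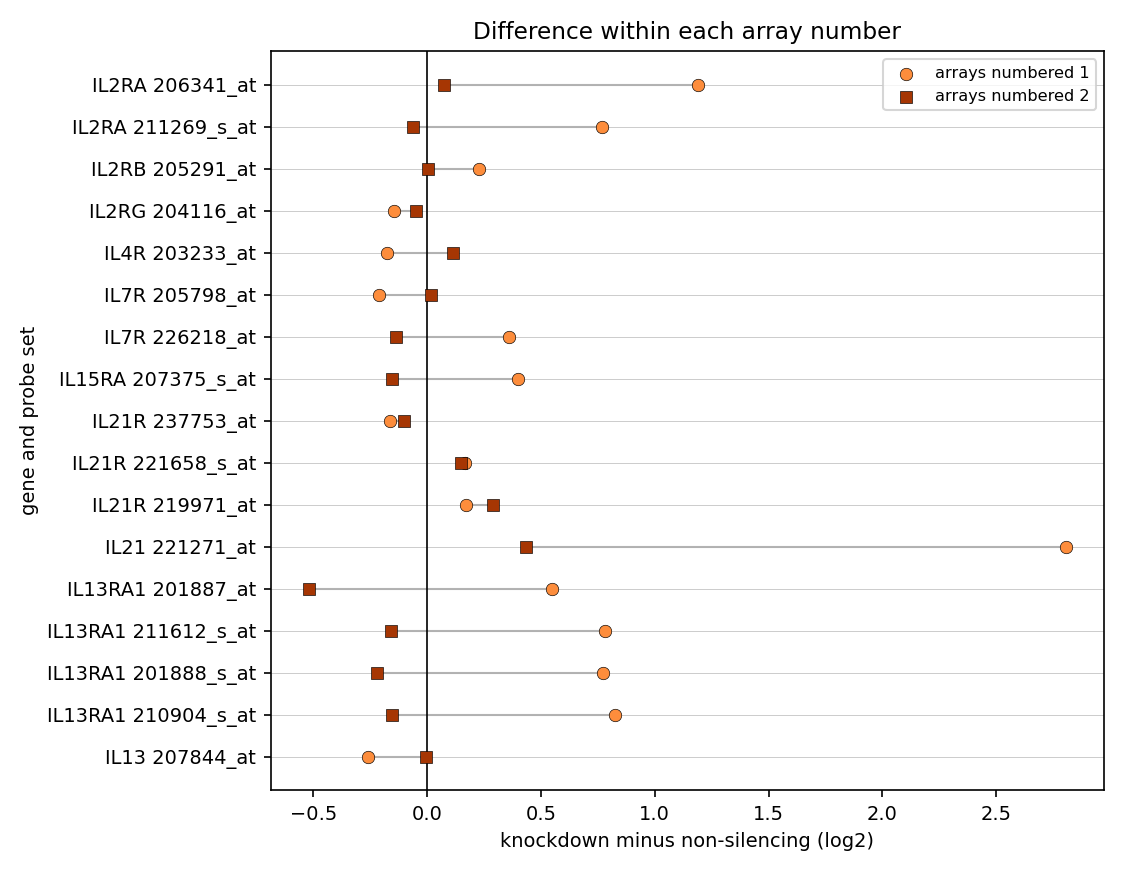
Knockdown minus non-silencing in log2 signal (x axis) for each of the 17 probe sets (y axis), as a circle between the arrays numbered 1 and a square between the arrays numbered 2, joined by a grey line. IL21 lay at 2.81 and 0.43, and 7 probe sets were above 0 for number 1 and below 0 for number 2.

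Of the remaining ligands and receptors of these systems, 8 of 9 listed genes were measured and IL15 alone passed the background limit. IL15 read 9.17 and 9.46 in the control arrays, against 9.33 and 9.63 with knockdown, with overlapping groups and a difference of 0.17. The growth factor gene IL7 read 5.13 and 4.66 against 4.50 and 4.32, a difference of -0.48 (SE 0.20) at values below the limit. CRLF2 (-0.32) and IL9R (-0.20) also had both knockdown arrays lower, at background signal, and none of the 8 passed in either direction. IL2, which lies next to IL21 in the genome, read 4.46 and 4.19 against 4.41 and 4.09. It did not share the high value of IL21 in knockdown array 1.

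Among 19 measured genes of signalling downstream of these receptors, 0 passed in either direction, 12 lay above 0 and the median difference was 0.06. STAT3, the main STAT of interleukin-21 signalling, read 8.16 and 8.28 in the control arrays, against 9.66 and 8.47 with knockdown, again with the highest value in knockdown array 1. Its difference was 0.85 (SE 0.39), with 1.50 and 0.20 within the array numbers. The adaptor genes IRS1 and IRS2, which link the interleukin-4 receptor to PI3 kinase, differed by 0.24 and -0.22. IRS2 read from 4.51 to 4.85, below the background limit in all arrays, while IRS1 was above it. Of 10 feedback inhibitors 0 passed, with a median of -0.02. PTPN1 is among them. Of inhibitors made in response to STAT activity, SOCS2 and SOCS1 differed by 0.29 and 0.13 with the groups apart. SOCS3, by its brightest probe set and at background, differed by -0.07 with the groups apart. A dimmer SOCS3 probe set was instead highest in knockdown array 1, by 3.04 over its next array. CISH differed by -0.01 with the groups overlapping. Of the 10 inhibitors 2 were apart with knockdown higher and 2 with it lower, against 12.4% and 15% of all genes. The lower 2 were PTPN1, the target of the knockdown, and SOCS3 by its brightest probe set.

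Of 13 target genes of interleukin-4 and interleukin-13, 0 passed, 7 lay above 0 and the median was 0.04. The chemokine gene CCL17 read 5.86 and 6.16 in the control arrays, against 7.25 and 6.70 with knockdown, a difference of 0.97 (SE 0.23). GATA3, a transcription factor, differed by -0.44 and IL4I1, an amino acid oxidase, by 0.36, both with the groups apart. Of the 13 genes 4 were apart with knockdown higher and 3 with it lower, against 12.4% and 15% of all genes. MRC1 among the higher and CCL22 and CD209 among the lower were below the background limit in all arrays. Of 16 target genes of interleukins 2, 7, 15 and 21, 0 passed, 9 lay above 0 and the median was 0.02. LTA, which encodes lymphotoxin, differed by 0.91, the germinal centre repressor BCL6 by 0.71 and the cell cycle inhibitor CDKN1A by 0.66. Of the 16 genes 5 were apart with knockdown higher and 3 with it lower, PRDM1 (-0.22) among the lower, against 12.4% and 15% of all genes. IL2RA among the higher and SOCS3 and OSM among the lower, by brightest probe set, were below the background limit in all arrays. BCL6 read 8.22 and 8.05 against 8.96 and 8.73, so that its knockdown arrays lay closer together than those of IL21 or IL2RA. This target list includes IL2RA and IL2RB, and the list for interleukins 4 and 13 includes IL4R. Of the feedback inhibitors, CISH, SOCS2 and SOCS3 are also in this list and SOCS1 is in the other, so the lists' counts overlap.

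Markers of Hodgkin cells were above the background limit for all 8 listed genes, among them TNFRSF8, which encodes CD30, at 8.16 to 9.32. Their summed linear signal was 6133 and 5834 in the control arrays, against 7846 and 6333 with knockdown. Of the 8 genes 7 were highest in knockdown array 1, where the share over all genes was 30.5%. CD70 was highest there by 0.0044 only. Of 7 T cell markers 4 passed the limit, including CD3D at 9.76 to 10.37, while CD3E, CD2 and CD28 did not. The T cell sum, most of it CD3D, was 1774 and 1482 against 1771 and 1297. Between the arrays numbered 1 its members did not move alike, with CD3D at 0.13, CD3G at -0.44, ZAP70 at -0.41 and CD2 at -0.34. Summed signals of NK cell markers ranged from 127 to 149 (1 of 5 above the limit), of monocyte or macrophage markers from 290.0 to 394 (2 of 6, including CD14) and of B cell markers from 372 to 410 (3 of 6). Fibroblast markers summed to 747 and 1118 against 484 and 969 (1 of 5, COL1A1). The part of these markers in the IL21 and IL2RA values was not tested.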

How the data were processed

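Total RNA from KM-H2 cells was measured on 4 arrays after 2-cycle amplification, per the labels' protocols. The authors deposited log2 signals. The submitters' processing notes name RMA. That method subtracts background, equalises the arrays' quantiles and combines probes into probe sets. Its software is not given in the sources used here. It compresses differences at low signal and hides a change in total RNA. Groups and array numbers came from the titles. The platform's annotation gave 1 gene symbol to 41097 probe sets, several to 1801 and none to 11777. Gene symbols were looked up by gene identifier in RefSeq (GRCh38.p14), where 54 were not found. The probe set with the highest mean stood for its gene, and all probe sets of the 10 genes were also fitted.

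The groups were compared in limma 3.58.1 (R 4.3.3) (lmFit and eBayes, two-sided, Benjamini-Hochberg over all genes, threshold 0.05). Intervals, SEs and p-values of genes come from the fit over genes, and SEs of single probe sets, where a gene has several, from a fit over all 54675 probe sets. Named genes were the 10 members, the 3 largest differences with groups apart in each further list, the 5 genes closest to IL21 and IL2RA, and neighbours up to 3 places away; other names were chosen after their values were seen. The members and lists were chosen with earlier results of these data known. Precision is limited by the number of arrays.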

Additional observations from a re-analysis of the deposited data

How the results depend on the processing

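Other variance models, filters and the block leave a gene's difference as it is, so only normalization and the choice of probe set could turn its direction. Quantile normalization and centring turned none of the 10. The mean or median of probe sets turned 2, IL7R to 0.00623 with either and IL21R to 0.0849 with the mean and 0.158 with the median. Without 1 array, 9 of 40 differences changed sign. The ranges were -0.33 to 0.138 for IL2RG, -0.14 to 0.0799 for IL4R, -0.425 to 0.453 for IL13RA1, -0.0117 to 0.244 for IL2RB, -0.265 to 0.0695 for IL7R and -0.169 to 0.411 for IL15RA. IL21 (0.347 to 2.89) and IL2RA (0.187 to 1.08) stayed above 0, and IL13 (-0.243 to -0.0195) and IL21R (-0.239 to -0.0263) below. The members' median was 0.10 with the mean and 0.119 with the median of probe sets, and -0.019 to 0.105 without 1 array. In limma 1 gene passed with an intensity trend, and without 1 array 0 to 1 gene and 0 to 1 probe set passed. The count of genes with groups apart was 3007 among those at or above the median signal, where fewer genes are counted, and 11586 to 13790 without 1 array, where 3 arrays separate more readily. The count of 6 members above background was 7 with the array median as the limit.

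With the replicate number as a block, 72 genes and 164 probe sets passed, none of them a member or a member's probe set. In that limma fit 2 of the 10 had an unadjusted p under 0.05, IL21 (0.0185, adjusted 0.384) and IL2RA (0.0467, adjusted 0.476). The labels do not say what a number stands for. Deviations of same-numbered arrays correlated at r = 0.648 across 19775 genes, which are not independent.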

Other observations

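Several of the 10 genes lie beside each other in the genome, by gene order in GRCh38.p14. IL4R and IL21R are adjacent on chromosome 16, IL2RA and IL15RA on chromosome 10 have 1 annotated RNA gene between them, IL21 is adjacent to IL2 on chromosome 4, and IL13 is adjacent to IL4 on chromosome 5. IL4 read from 3.31 to 3.46 and IL5, another cytokine gene of that cluster, from 3.83 to 4.33, all below the background limit. On the other side of IL21, BBS12, a chaperonin-like gene, read 4.77 and 6.97 in the control arrays, against 6.61 and 6.39 with knockdown, so that non-silencing array 1 was low. ADAD1, which follows IL2, differed by 0.47 and 0.11 within the array numbers. FBH1, a DNA helicase gene beside IL15RA, read 8.11 and 7.93 against 7.97 and 7.66 and did not share the high value of IL2RA and IL15RA in knockdown array 1. None of these neighbours passed in limma.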
